A study of Homo sapiens with 4 samples.

Results

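Survival genes of the BCL2 and IAP families were examined for occupancy by BCL6 in SUDHL5, a cell line from a diffuse large B-cell lymphoma. BCL6 is a transcriptional repressor of germinal centre B cells. The genes were chosen by name: BCL2, BCL2L1, BCL2L2, MCL1 and BCL2A1 of the BCL2 family, BIRC2, BIRC3 and XIAP of the inhibitor of apoptosis (IAP) family, and CFLAR. They are 9 of 19974 protein-coding genes that RefSeq places on the autosomes and X. A peak was assigned to a gene when its summit lay in the gene or within 50 kb of either RefSeq end, a rule that 10 of the 5237 peaks in replicate 1 met, as did 7 of the 3536 in replicate 2. The series holds 4 libraries, 2 made with an antibody to BCL6 and 2 with normal rabbit IgG, each pair labelled as biological replicates. All came from SUDHL5 nuclei processed by CUT&RUN, which releases DNA around an antibody-bound protein with a tethered nuclease. No treatment, genotype or time is named for any of them, and IgG values were not analysed here. The data come from a single cell line, and the cell type label was not checked because peak lists do not measure expression.

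Apoptosis is set by the balance between these proteins and their antagonists. BCL2, BCL-XL (from BCL2L1), BCL-W (from BCL2L2), MCL1 and BFL1 (from BCL2A1) bind BH3-only proteins and the pore-forming effectors BAX and BAK, and so keep the outer mitochondrial membrane closed. IAP proteins act further on: XIAP binds and blocks active caspases, while cIAP1 and cIAP2, encoded by BIRC2 and BIRC3, are ubiquitin ligases of TNF receptor and NF-kB signalling. CFLAR encodes c-FLIP, a caspase-8 relative without protease activity that limits death receptor signalling. In germinal centre B cells BCL6 is known as a repressor of BCL2 and BCL2L1, among other genes.

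Promoters are shown for BIRC3, which a peak touched, for its neighbour BIRC2 as a comparison without one, and for BCL2A1, where a motif was found. RefSeq promoter windows of GRCh38.p14, from 250 bases before to 50 bases after a transcription start, were matched for 7 of the 9 genes (14 windows). MCL1 and BCL2L2 had none. One window was touched by a peak, that of BIRC3. It lies on the plus strand at chr11:102317234-102317533, and the capitals mark the 40 bases that a replicate 1 peak covered. BIRC2 has 2 overlapping windows on the plus strand, neither with a peak or a motif match, and the one that belongs to the gene's annotated start, chr11:102346964-102347263, is shown. The window of BCL2A1, on the minus strand at chr15:79971147-79971446, held the only motif match, which is in capitals. The sequences are given 5′ to 3′.
BIRC3: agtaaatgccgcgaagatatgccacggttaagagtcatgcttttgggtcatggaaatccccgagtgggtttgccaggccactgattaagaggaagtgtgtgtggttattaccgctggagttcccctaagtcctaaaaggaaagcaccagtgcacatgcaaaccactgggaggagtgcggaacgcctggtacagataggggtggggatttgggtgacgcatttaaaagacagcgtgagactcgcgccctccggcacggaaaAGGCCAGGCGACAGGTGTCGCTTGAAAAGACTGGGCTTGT
BIRC2: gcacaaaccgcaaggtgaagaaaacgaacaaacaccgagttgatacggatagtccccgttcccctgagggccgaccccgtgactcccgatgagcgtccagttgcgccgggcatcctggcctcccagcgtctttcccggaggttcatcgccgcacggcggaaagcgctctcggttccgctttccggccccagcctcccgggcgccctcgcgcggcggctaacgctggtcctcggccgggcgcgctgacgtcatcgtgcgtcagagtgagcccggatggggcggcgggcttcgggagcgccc
BCL2A1: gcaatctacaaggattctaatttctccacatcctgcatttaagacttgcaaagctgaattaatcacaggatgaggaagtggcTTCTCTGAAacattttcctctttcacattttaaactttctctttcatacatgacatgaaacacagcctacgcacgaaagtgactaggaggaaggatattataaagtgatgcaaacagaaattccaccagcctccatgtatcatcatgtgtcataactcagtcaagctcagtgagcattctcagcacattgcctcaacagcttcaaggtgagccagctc

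The BCL6 consensus was searched as TTCCTNGAA, with its reverse complement TTCNAGGAA, and in a looser form as TTCNNNGAA, which reads alike on both strands and includes the first. The stricter form was in 0 of the 14 windows of these genes and in 1.56% of all 35116 RefSeq promoter windows. The looser form was in 1 of 14, at position -168 from the start of BCL2A1 (TTCTCTGAA), and in 7.66% of all windows. Base composition differed among the windows shown: G and C made up 53.3% of the BIRC3 window, 68.7% of the BIRC2 window shown (74% of the other) and 41% of the BCL2A1 window, against a median of 58.7% over all windows. A replicate 1 peak touched 3.67% of RefSeq promoter windows and a replicate 2 peak 2.83%.

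Peaks of both replicates gathered at 3 places, beside MCL1, before BIRC3 and beyond CFLAR. A shared region is a merged interval that holds a peak of each replicate, with at least 1 bp in common. Such a region lay within 50 kb of 4 of the 9 genes, MCL1, BIRC2, BIRC3 and CFLAR, while 10.2% of all protein-coding genes had one (n = 2 replicates). The number of shared regions was 3 for MCL1 and 2 for CFLAR, and BIRC2 and BIRC3 have the same 2 regions. Counted as loci, 3 of 8 had a shared region. That each of these 4 genes has a peak in each replicate follows from the definition of a shared region. Of all protein-coding genes, 29.5% had a replicate 1 peak and 23.3% a replicate 2 peak. The other 5 genes, BCL2, BCL2L1, BCL2L2, BCL2A1 and XIAP, had no peak of either replicate within 50 kb, as did 62.7% of all protein-coding genes.

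**Figure D1:**
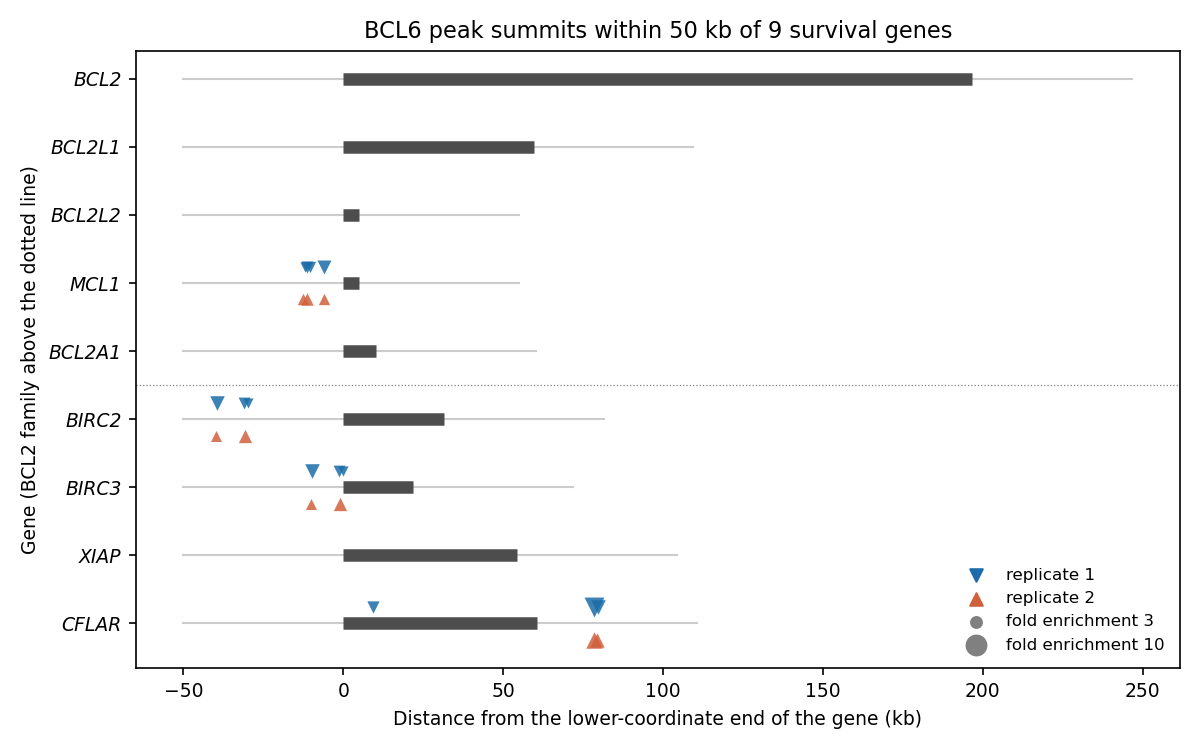
Summits of BCL6 peaks around the 9 genes, each row 1 gene, against distance from the lower-coordinate gene end in kb. Dark bars are gene bodies, grey lines the windows of 50 kb on both sides, triangles the summits of replicate 1 (above) and replicate 2 (below), with area proportional to fold enrichment. Peaks are seen at MCL1, BIRC2, BIRC3 and CFLAR and at none of the other 5 genes.

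MCL1 encodes a short-lived BCL2 relative on which many B-lineage cells depend, and it is the one member of its family with BCL6 peaks within 50 kb. The gene spans chromosome 1 from 150574558 to 150579610. All 7 peaks lay beyond its lower-coordinate end, between 6026 and 12521 bp away, and every summit was inside ADAMTSL4-AS1, a long non-coding RNA gene that fills the interval between ADAMTSL4 and MCL1 (150560895 to 150574552). No summit was inside MCL1 itself. Strand was read from promoter windows, which MCL1 lacked, so its peaks are not placed upstream or downstream and are not called promoter peaks.

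The MCL1 peaks formed 3 shared regions. The region from 150567297 to 150569018 was closest, with summits 50 bp apart, at 6026 bp in replicate 1 and 6076 bp in replicate 2. The authors' fold enrichment, a ratio of summit signal over local background, came to 4.99 and 3.29 in replicates 1 and 2. The summit pileup, the number of fragments stacked at the summit, was 31 (95% Poisson interval 21.1 to 44.0) and 34 (23.5 to 47.5). The intervals overlapped, while local backgrounds of 5.41 and 9.64 lay under the pileups. Library totals are unknown, so these counts are not scaled between replicates and the overlap does not measure agreement.

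The middle region at MCL1, from 150563045 to 150564246, held 2 peaks of replicate 1 and 1 of replicate 2. Its strongest peaks had fold enrichments of 3.75 and 3.99, with pileups of 58 (44.0 to 75.0) and 48 (35.4 to 63.6). The second replicate 1 peak there had a fold enrichment of 3.23 and a pileup of 34. By the smaller of both fold enrichments this was the strongest region in the MCL1 window, ranked 409 of 1311 shared regions. However, ADAMTSL4 was the nearest protein-coding gene of its summits, at 2.19 and 3.19 kb in replicate 1 and 2.38 kb in replicate 2. The region from 150561181 to 150562775, next to ADAMTSL4, had fold enrichments of 2.68 and 3.35 with pileups of 49 (36.3 to 64.8) and 52 (38.8 to 68.2). Its summits were 1.49 and 1.1 kb from ADAMTSL4. MCL1 was the nearest protein-coding gene only for the region closest to it.

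The local background was high at the 2 MCL1 regions nearer ADAMTSL4. The control given to the peak caller is not stated in the sources used here, so this background may be signal of a control library or of the BCL6 library around the peak. The value at their strongest peaks reached 17.7 and 14.7 in replicate 1, and 14.8 and 11.3 in replicate 2, where the median over all peaks was 5.90 and 4.63. These values lay at the 98.4th and 96.5th percentile of replicate 1 peaks and at the 98.9th and 95.7th percentile of replicate 2 peaks. At the region closest to MCL1 they lay at the 43.9th and 90.2nd percentile. The part of the local background in the number of MCL1 peaks was not tested.

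BIRC3 encodes cIAP2, a well known NF-kB target, and was the one gene of the 9 with a peak at a transcription start. It spans chromosome 11 from 102317484 to 102339403 on the plus strand, so its peaks at lower coordinates are upstream. A replicate 1 peak from 102317494 to 102317959 had its summit 48 bp inside the gene. It had a fold enrichment of 2.64, a −log10 q of 3.99 and a pileup of 38 (26.9 to 52.2) over a background of 13.8. Replicate 2 had no peak there, so this peak is not part of a shared region.

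Upstream of BIRC3 were 2 shared regions. The nearer, from 102315972 to 102316565, had its summits 1356 bp (replicate 1) and 1015 bp (replicate 2) before the gene, inside the non-coding RNA gene LOC124902739. Fold enrichments were 3.58 and 4.54, with pileups of 23 (14.6 to 34.5) and 22 (13.8 to 33.3). The farther region, from 102307413 to 102307914, had its summits 9687 and 10031 bp before the gene, outside any annotated gene. Replicate 1 gave it a fold enrichment of 5.43 and replicate 2 of 3.09, and its −log10 q was 10.5 and 3.32. The pileups there were 30 (20.2 to 42.8) and 25 (16.2 to 36.9), not scaled for library size, and the backgrounds were 4.70 and 7.42. Summits of the replicates were 341 and 344 bp apart in these regions, against a median of 91 bp over all shared regions.

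BIRC2, which encodes cIAP1, begins 7810 bases after the end of BIRC3 on the same strand, from 102347214 to 102378670. Its peaks were the same 5 as those of BIRC3, seen from 29.7 to 39.8 kb upstream, and for each of them BIRC3 was the nearest protein-coding gene. No summit was inside BIRC2 or beyond its far end within 50 kb.

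CFLAR had the strongest region of the set, although it lay inside the next gene. CFLAR spans chromosome 2 from 201116164 to 201176687 on the plus strand. The region from 201193933 to 201194814 was 17.9 kb (replicate 1) and 17.8 kb (replicate 2) past its 3′ end, with both summits inside CASP10, the gene of an initiator caspase of death receptor signalling, 11.4 and 11.3 kb from its nearer end. Fold enrichments were 10.1 and 6.97, and −log10 q was 30.9 and 16.8. The pileups were 49 (36.3 to 64.8) and 37 (26.1 to 51.0) over backgrounds of 3.93 and 4.45. By the smaller of both fold enrichments it ranked 34 of 1311 shared regions, and the summits were 67 bp apart.

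A weaker CFLAR region, from 201195203 to 201195941, was also inside CASP10. Its fold enrichments were 5.40 and 5.32, but the pileups of 15 (8.40 to 24.7) and 13 (6.92 to 22.2) lay at the 2.06th and 2.25th percentile of shared regions, over backgrounds of 1.96 and 1.63. Within CFLAR itself replicate 1 had 1 peak, from 201125307 to 201125705, with its summit 9393 bp from the lower-coordinate end. That peak had a fold enrichment of 3.87, a −log10 q of 4.90 and a pileup of 23 (14.6 to 34.5), and replicate 2 had none inside the gene. It lay 3408 bp from the nearest of the 4 transcription starts that RefSeq promoter windows give for CFLAR.

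**Figure D2:**
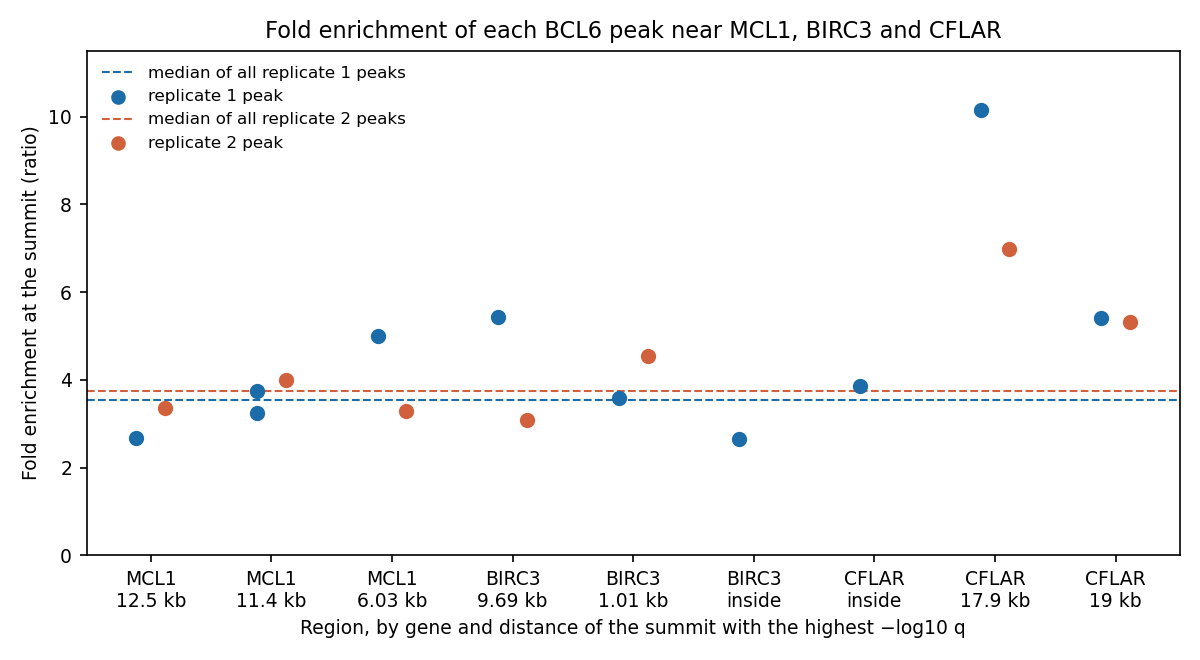
Fold enrichment (ratio, vertical axis) of each BCL6 peak near MCL1, BIRC3 and CFLAR, with 1 column per region labelled by the distance of its summit from the gene. Points are single peaks of replicate 1 and replicate 2, and dashed lines the medians of all peaks on chromosomes 1 to 22 and X, 3.55 and 3.74. The CFLAR region at 17.9 kb is highest in both replicates, with 10.1 and 6.97.

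The protein-coding genes whose strongest shared region was most like that of CFLAR, by distance in log2 fold enrichment over the 2 replicates, were CASP10 and CASP8, which have the same region in their windows (distance 0). The next was FPGT (distance 0.027), with fold enrichments of 10.3 and 6.92, tied with FPGT-TNNI3K, LRRIQ3 and TNNI3K at the same region.

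The genes without peaks differed in how far BCL6 signal was. BCL2, the founding survival gene of the family and the longest of the 9 at 197 kb, had 0 peaks in a window of 297 kb. The nearest replicate 1 summit was 381 kb away (fold enrichment 3.45) and the nearest replicate 2 summit 471 kb away (3.85), both with PHLPP1 as the nearest gene. The nearest shared region was 5395 kb from BCL2, and 8.31% of protein-coding genes were farther from one.

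For BCL2L1 the nearest summits were 2010 and 1685 kb away in replicates 1 and 2, and the nearest shared region was 2388 kb away, inside EIF2S2. BCL2L2, a gene of 4.92 kb on chromosome 14, had its nearest summits at 211 kb in replicate 1 and 212 kb in replicate 2. Their fold enrichments were 4.08 and 1.96, and their −log10 q 16.9 and 1.81. These peaks were not in a shared region, and the nearest shared region was at 419 kb. BCL2A1, an NF-kB-responsive member of the family, had a replicate 2 summit at 182 kb with a fold enrichment of 2.79 and a −log10 q of 1.56, but no replicate 1 summit closer than 1086 kb. XIAP had its nearest summits at 3106 and 3105 kb, where peaks of the replicates were near each other but not overlapping, and its nearest shared region at 5863 kb. The median distance of a protein-coding gene to a shared region was 765 kb, so BCL2, BCL2L1, BCL2A1 and XIAP were beyond it and BCL2L2 within it. Library totals are unknown and a weak site can be missed, so an empty window does not show that BCL6 was absent.

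**Figure D3:**
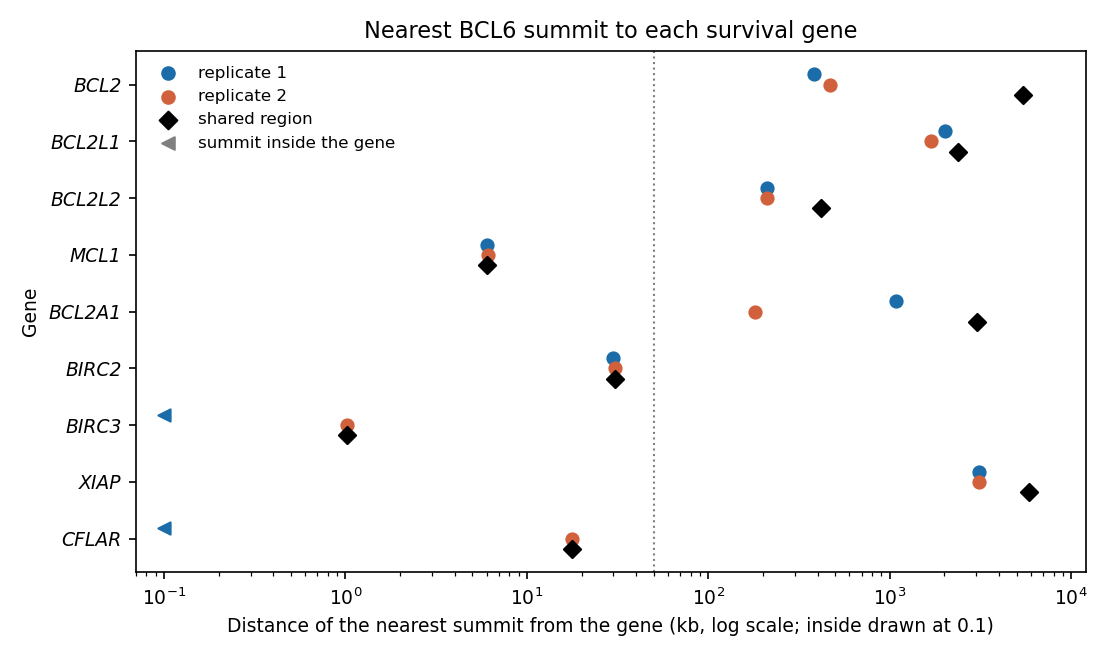
Distance from each gene to the nearest BCL6 summit (kb, log scale) in replicate 1, replicate 2 and shared regions. Triangles drawn at 0.1 kb stand for a summit inside the gene, and the dotted line marks 50 kb. MCL1, BIRC2, BIRC3 and CFLAR lie left of the line, and the other 5 genes lie between 182 and 5863 kb.

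The BCL2 family was then compared with the IAP family and CFLAR. A shared region was found at 1 of 5 BCL2 family genes and at 3 of 4 of the others (2 of 3 IAP genes, and CFLAR), beside 10.2% of all protein-coding genes. In 5 of the 10 alternative rules, the count was 1 of 5 against 1 of 4, which moved the difference between the shares from 55 to 5 percentage points. With BIRC2 and BIRC3 as 1 locus, the count was 2 of 3. The windows of the BCL2 family covered 777 kb and held 7 peaks, all at MCL1, and those of the IAP family and CFLAR covered 476 kb and held 10. In replicate 1 this gave 0.515 against 1.26 peaks per 100 kb, and in replicate 2 0.386 against 0.840, where windows of all protein-coding genes held 0.256 and 0.175. By single gene the order was otherwise, with MCL1 densest at 3.81 and 2.86 peaks per 100 kb. BIRC3 had 2.46 and 1.64, BIRC2 2.28 and 1.52, and CFLAR 1.87 and 1.25, while the other windows were empty. Genes are not replicates of a condition and no test of the difference between the families was made.

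Peak strength overlapped between the families. Fold enrichment ran from 2.68 to 4.99 in replicate 1 and from 3.29 to 3.99 in replicate 2 for the BCL2 family. For the IAP family and CFLAR it ran from 2.64 to 10.1 and from 3.09 to 6.97. The medians were 3.49 and 3.35 for the BCL2 family against 4.64 and 4.93 for the others, with 3.53 and 3.74 over all peaks in windows of protein-coding genes. Without CFLAR the medians of the IAP family were 3.58 and 3.82, near those over all these windows. The higher values of the others thus rest on the CFLAR window, where the shared regions lie inside CASP10. Summit pileups were ordered the other way, with medians of 41.5 and 48 at MCL1 against 26.5 and 23.5 for the others. So were local backgrounds, with 12.3 and 11.3 against 4.95 and 4.26 (5.70 and 5.74 for the IAP family without CFLAR). Of the 17 peaks, 2 belonged to replicate 1 alone (the summits inside BIRC3 and CFLAR) and 0 to replicate 2 alone. Those 2 are also the summits that lay inside a gene of the set.

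**Figure D4:**
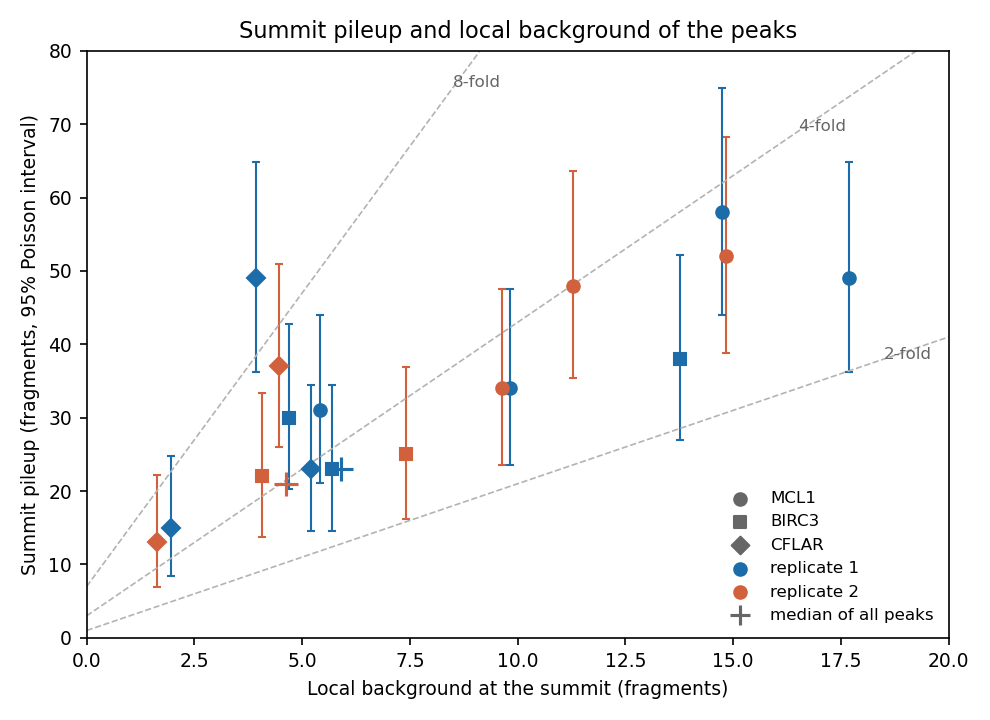
Summit pileup (fragments, with 95% Poisson intervals) against local background (fragments) for the 17 peaks near MCL1, BIRC3 and CFLAR, by replicate. Crosses are the medians of all peaks on chromosomes 1 to 22 and X, and dashed lines are constant fold enrichment. Most MCL1 peaks lie at the high end of both axes, and the strongest CFLAR peaks (49 and 37 fragments) over a low background of 3.93 and 4.45.

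The count of genes depended on the rule. Within 10 kb a shared region was found at MCL1 and BIRC3, 2 of 9 against 5.79% of all genes, and the same pair remained where a region counted only for its nearest protein-coding gene (4.75%), since the CFLAR region is in CASP10 and the BIRC2 regions are nearer BIRC3. When −log10 q had to reach 5 (4.49%) or 10 (2.39%), MCL1 and CFLAR were left, and likewise where summits had to be within 200 bp of each other (7.72%). All 4 genes were kept within 100 kb (15.1%), within 50 kb of a gene end without the rest of the body (9.82%) and with a reciprocal overlap of 50% (7.02%). MCL1 met every one of these rules. The members of the BCL2 family other than MCL1, and XIAP, met none. The summit closest to the 50 kb limit on the inside was 39.8 kb from BIRC2 (replicate 2, fold enrichment 3.09). On the outside, at up to 100 kb, were 3 replicate 2 peaks beyond CFLAR nearest to CASP8, at 56.0, 81.2 and 83.7 kb with fold enrichments of 3.30, 3.32 and 2.87, and a replicate 1 peak 79.1 kb from BIRC2 with 4.12. None of these 4 was in a shared region.

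**Figure D5:**
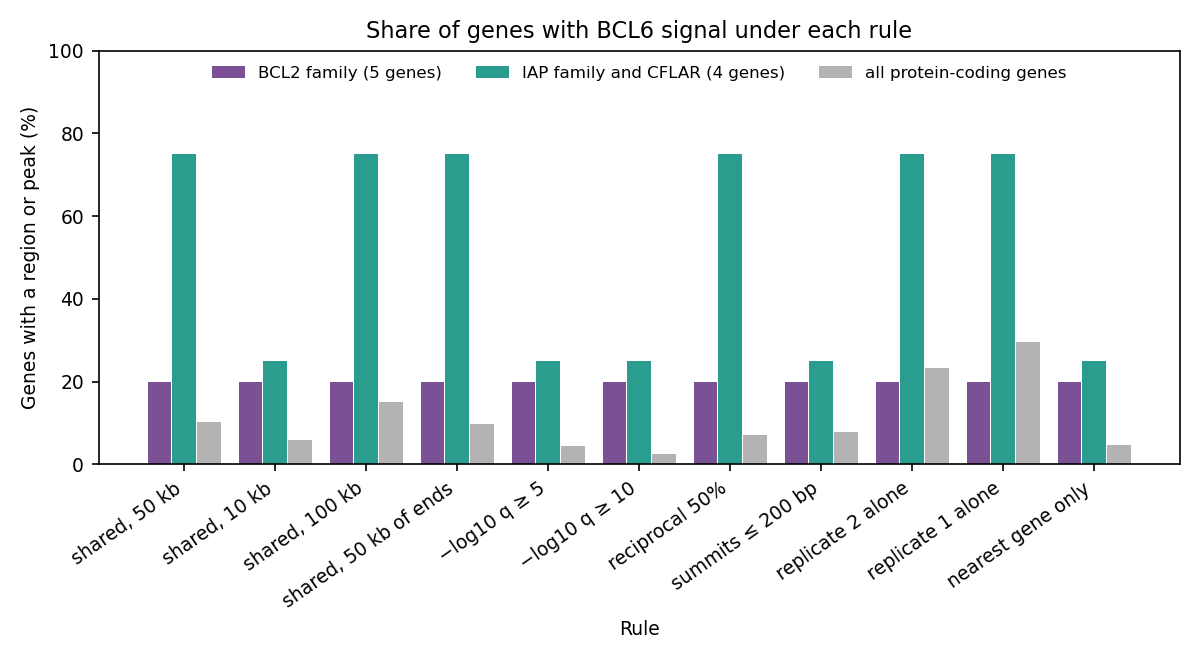
Percentage of genes with a shared region, or with a peak of 1 replicate, under each of 11 rules, for the BCL2 family (5 genes), the IAP family with CFLAR (4 genes) and all protein-coding genes. The BCL2 family stays at 20%, which is MCL1 alone. The IAP family with CFLAR is at 75% or 25% by rule.

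The rest of the apoptosis pathway was described with a list of 45 genes, of which 44 were found among protein-coding genes (BIRC8 is annotated as a pseudogene). A shared region within 50 kb was found at 8 of 44, beside 10.2% of all genes. Among antagonists of the BCL2 family, 4 of 8 BH3-only genes had one: BCL2L11, which encodes BIM (fold enrichments 3.12 and 2.90), BMF (2.44 and 4.17), HRK (2.44 and 3.40) and BAD (2.91 and 3.55). In replicates 1 and 2 the −log10 q of these regions was 5.80 and 6.50 for BAD and 6.50 and 3.87 for BCL2L11. It was 1.65 and 4.87 for BMF, and 1.65 and 2.24 for HRK. The replicate 1 peaks of BMF and HRK were thus weak, and only BAD reached 5 in both replicates. However, the BAD region was the farthest from its gene, at 19975 bp. That of BCL2L11 was 283 bp away, and those of BMF and HRK had a summit inside the gene. A shared region was found at 0 of 3 effectors (BAX, BAK1 and BOK) and at 0 of 5 other BCL2-like genes. On the IAP side, 0 of 4 other genes with BIR domains and 0 of 3 antagonists or modifiers (DIABLO, HTRA2 and XAF1) had one. Among caspases and apoptosome genes it was 3 of 9: CASP6, an executioner caspase (4.06 and 4.88), and CASP8 and CASP10, which share the region given for CFLAR. Of 10 death receptor and adaptor genes, TNFRSF10A, a TRAIL receptor, had one 19977 bp away (3.72 and 7.66), and CD40 and MAP3K14 had none. CFLAR, CASP10 and CASP8 are neighbours, so their counts rest on the same regions.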

How the data were processed

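BCL6 CUT&RUN was done on SUDHL5 nuclei (500000 per reaction, 14 PCR cycles, per the labels' protocols). Per the submitters' processing notes the build was hg38 and the tools included Bowtie2, Picard and MACS2, although their roles, versions, settings and the control are not given there. The authors deposited 1 peak list per replicate, with no pooling, giving fold enrichment (a ratio), −log10 of p and of q, a score (10 times −log10 q) and the summit. The smallest deposited −log10 q was 1.31 in each list. The score was not used.

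Peaks of chromosomes 1 to 22 and X were assigned to genes of RefSeq GRCh38.p14, the assembly of hg38, with Python 3.11.15, pandas 2.3.3 and SciPy 1.17.1. Library totals are unknown. Pileup and background at each summit were solved from the deposited fold enrichment, taken as (pileup + 1) / (background + 1), and the Poisson p, within 0.001 on the −log10 scale for 5230 of 5230 and 3529 of 3529 peaks. Median pileups were 23 and 21. A Poisson interval here covers counting error alone and leaves out variation between replicates. It is too narrow where reads copied by PCR were counted, because these are not separate molecules. The recovery of pileups, the shared regions and the gene windows were tested on simulated data, and the other steps were not. The simulated pileups followed the formula above, so that test covers the calculation and not the formula.

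The members and lists were chosen with earlier results of these data known, so no p-value is given. All 9 genes are described whatever their values, with the nearest protein-coding gene of each peak, the pathway genes with a shared region, and the genes most like the member with the strongest region. The alternatives were the window, the −log10 q minimum, the overlap rule, each replicate alone and the nearest gene alone. Counting BIRC2 and BIRC3 as 1 locus was added after seeing the data.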

Additional observations from a re-analysis of the deposited data

How the results depend on the processing

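The number of survival genes with a shared region was 4. It was 2 with a 10 kb window, with a −log10 q minimum of 5 or 10, with summits within 200 bp and with the nearest gene only. In the same 5 settings the share of the IAP family with CFLAR minus that of the BCL2 family fell from 55 to 5 percentage points, where 1 gene of each family was left and the sign is set by the family sizes of 5 and 4. With BIRC2 and BIRC3 as 1 locus it was 46.7. In each replicate alone both stayed at 4 and 55. Genes with a shared region have a peak in each list by definition, and no other gene of the set was added. The peaks in the windows numbered 17 in both lists together, 7 within 10 kb, 5 with −log10 q of at least 10, 8 with the nearest gene only, and 7 to 10 in a single list, which by construction holds fewer. Pathway genes with a region numbered 8 of 44 (18.2%, against 10.2% of all genes). They numbered 5 within 10 kb (11.4% against 5.79%), 3 and 2 at −log10 q minimums of 5 and 10 (6.82% against 4.49%, and 4.55% against 2.39%), and 5 with the nearest gene only (11.4% against 4.75%). In a single list they numbered 14 in replicate 2 (31.8% against 23.3%) and 21 in replicate 1 (47.7% against 29.5%). The motif was in 0 promoter windows, and the looser form in 1. The smaller fold enrichment of the strongest MCL1 region, 3.75, was 3.29 within 10 kb and 2.68 with reciprocal overlap, which leave other regions. No paired analysis was possible because the BCL6 replicates had no file of an IgG library among those used here to be paired with. Pileups of 13 to 58 fragments limit what can be told apart between replicates.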
